A study of Mus musculus with 12 samples.

Results

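The genes described here encode enzymes that make serine, carry one-carbon units through the folate cycle and make asparagine, proline and cysteine. They were taken as the 10 symbols Phgdh, Psat1, Psph, Shmt2, Mthfd2, Aldh1l2, Asns, Pycr1, Aldh18a1 and Cth, with every probe set that the array platform's annotation gives to one of them alone. Of the 10 genes, 9 had such a probe set and Pycr1 was not analysed here. The 9 genes were read by 22 of the 34945 probe sets with 1 symbol, and all 9 were among the 14568 genes tested. Another 2 probe sets, which the annotation shares between Phgdh and another symbol, were left out, and 21 of the 22 lay above the filter on dim probe sets.

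The study asked how the livers of mice lacking Ire1α responded to stress of the endoplasmic reticulum (ER). Ire1α, the product of Ern1, is an ER membrane kinase and RNase that senses misfolded protein. The 4 groups were Ire1α null livers with tunicamycin (Fe-CRE+Tm), control livers with tunicamycin (Fe+CRE+Tm), Ire1α null livers with vehicle (Fe-CRE+) and control livers with vehicle (Fe+CRE+), with 3 biological replicates in each. All were from C57Bl/6J mice aged 3 months that carried CRE by their titles. The null mice are named conditional, and the sources used here give neither the promoter that drives Cre nor the deleted part of Ern1. Tunicamycin, an inhibitor of N-linked glycosylation, was given at 2 µg per g of body weight into the peritoneum, the vehicle was 150 µM dextrose, and livers were collected after 8 hours.

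Serine is made from a glycolytic intermediate in a short chain of steps: Phgdh oxidises phosphoglycerate, Psat1 transfers an amino group, and Psph removes the phosphate. Serine then gives glycine and a one-carbon unit to folate, in mitochondria through Shmt2, after which Mthfd2 and Aldh1l2 oxidise the folate-bound carbon. Asns makes asparagine from aspartate, Aldh18a1 and Pycr1 make proline from glutamate, and Cth splits cystathionine to give cysteine. In mammalian cells under amino acid shortage or ER stress, phosphorylation of the translation factor eIF2α raises translation of ATF4, a transcription factor for which Asns, Psat1, Phgdh and Mthfd2 are known targets. The liver is a main site of both amino acid synthesis and breakdown.

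Promoter sequences from RefSeq (build GRCm38.p6), 250 bases before to 50 bases after the annotated start, were matched for 8 of the 10 genes. They are shown for Asns, because it holds a match to the element known from ATF4 targets, and for Psat1 and Aldh18a1, called members in which no match was found. All 3 lie on the minus strand, at chr6:7693160-7693459 for Asns, chr19:15925010-15925309 for the first of 2 listed Psat1 starts and chr19:40588414-40588713 for Aldh18a1. Capitals mark a match to TGATGNAA, the composite element bound by ATF4 with a C/EBP protein.
Asns: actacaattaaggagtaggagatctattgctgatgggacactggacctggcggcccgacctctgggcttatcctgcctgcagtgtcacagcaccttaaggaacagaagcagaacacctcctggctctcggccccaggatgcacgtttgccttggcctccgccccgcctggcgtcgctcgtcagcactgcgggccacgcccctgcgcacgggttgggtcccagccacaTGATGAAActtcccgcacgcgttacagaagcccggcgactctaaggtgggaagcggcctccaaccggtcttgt
Psat1: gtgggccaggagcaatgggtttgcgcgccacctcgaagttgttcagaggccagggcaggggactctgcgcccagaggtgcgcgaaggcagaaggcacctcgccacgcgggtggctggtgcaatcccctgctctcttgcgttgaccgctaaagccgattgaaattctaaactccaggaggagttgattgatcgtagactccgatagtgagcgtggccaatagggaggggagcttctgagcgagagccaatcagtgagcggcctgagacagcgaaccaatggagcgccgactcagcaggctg
Aldh18a1: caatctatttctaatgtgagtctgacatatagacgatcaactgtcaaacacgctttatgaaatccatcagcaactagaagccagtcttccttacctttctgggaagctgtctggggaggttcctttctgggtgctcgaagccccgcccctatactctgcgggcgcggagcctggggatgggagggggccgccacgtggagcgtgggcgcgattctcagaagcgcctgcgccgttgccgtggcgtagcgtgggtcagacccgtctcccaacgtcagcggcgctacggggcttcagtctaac
The Asns match, TGATGAAA, ran from base -23 to base -16 relative to the annotated start. The Pycr1 promoter held the other match, TGATGCAA, from -103 to -96. Both strands were searched, and 1304 of 32851 RefSeq promoters of the same length (3.97%) held TGATGNAA, against 2 of 9 promoters of these genes. Neither the ER stress element, found in 39 promoters (0.119%), nor the unfolded protein response element TGACGTGG, found in 222 (0.676%), was found in the 9. A match is a description of letters, not of a bound site.

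Before the results, some facts of the arrays as a whole bear on the values. The trimmed mean intensity of a tunicamycin array lay between 239 and 302 in null and between 276 and 296 in control livers. With vehicle it lay between 227 and 254 in null and between 234 and 260 in control livers. Apart from null tunicamycin replicate 2, at 239, each tunicamycin array was above each vehicle array. Of 12 hepatocyte markers 10 had a probe set, and 9 of these ranked at or above percentile 99.2 on every array, with Apob at 91.4 or above. Ern1 was read by 5 probe sets. On the brightest its intensity was 4793, 2147 and 3894 in null livers and 3697, 2950 and 3513 in control livers with tunicamycin, and 1489, 1142 and 1083 in null livers and 1846, 1344 and 1119 in control livers with vehicle, so that the genotypes overlapped. None of the 5 passed the threshold between genotypes in limma, with differences of -0.37 to 0.10 with tunicamycin and -0.24 to 0.00 with vehicle. Since the sources used here leave out which part was deleted, these levels do not check the genotype labels. The array of null tunicamycin replicate 2 carried kidney transcripts: 12 of 15 kidney markers lay more than 1 (log2) above all 11 other arrays. The summed marker intensity was 34100 there and 442 to 819 elsewhere, with Umod at 8801 against at most 85.2, Kap at 6990 against at most 49.3 and Calb1 at 4140 against at most 15.3. Results that include this array are therefore given with and without it where it matters.

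Values below are the deposited intensity of a probe set on each array, in the order of replicates 1, 2 and 3. Fold changes and differences are on the scale of log2(intensity + 16) after quantile normalization, which understates the change of dim genes, and ± gives their standard error in limma, with 3 arrays in each group. Adjusted p values are from limma with the Benjamini-Hochberg correction over all 14568 genes, and a gene was called at an adjusted p under 0.05. The verbs rose and fell, and higher and lower between genotypes, are kept for called genes. In whole liver RNA, fewer cells of a type and less RNA per cell cannot be told apart.

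Tunicamycin raised 5 of the 9 measured genes in null livers and the same 5 in control livers: Psat1, Psph, Mthfd2, Asns and Aldh18a1. None fell in either genotype, and Phgdh, Shmt2, Aldh1l2 and Cth did not pass the test. Over all genes tested, 7.59% rose and 9.23% fell in null livers, and 11.6% rose and 13.3% fell in control livers. For all 5 genes the tunicamycin and vehicle arrays did not overlap, in either genotype, a separation upward that 13.6% of all genes showed in null livers and 18.0% in control livers. The median change over the 9 genes was 1.46 in null and 1.40 in control livers, beside -0.07 and -0.11 over all genes. Without null tunicamycin replicate 2 it was 1.08 in null and 1.41 in control livers, beside -0.09 and -0.11 over all genes. The Aldh18a1 call in null livers was then lost (adjusted p = 0.0758 in limma). By probe set, in a fit of all 34945, 12 of 22 rose in null livers and 11 of 22 in control livers. The 22 read the same 9 genes on the same arrays, so they add no separate evidence. The share over all probe sets is not given here. By gene, with no filter on dim probe sets, 5.55% of all genes rose in null and 8.96% in control livers.

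**Figure D1:**
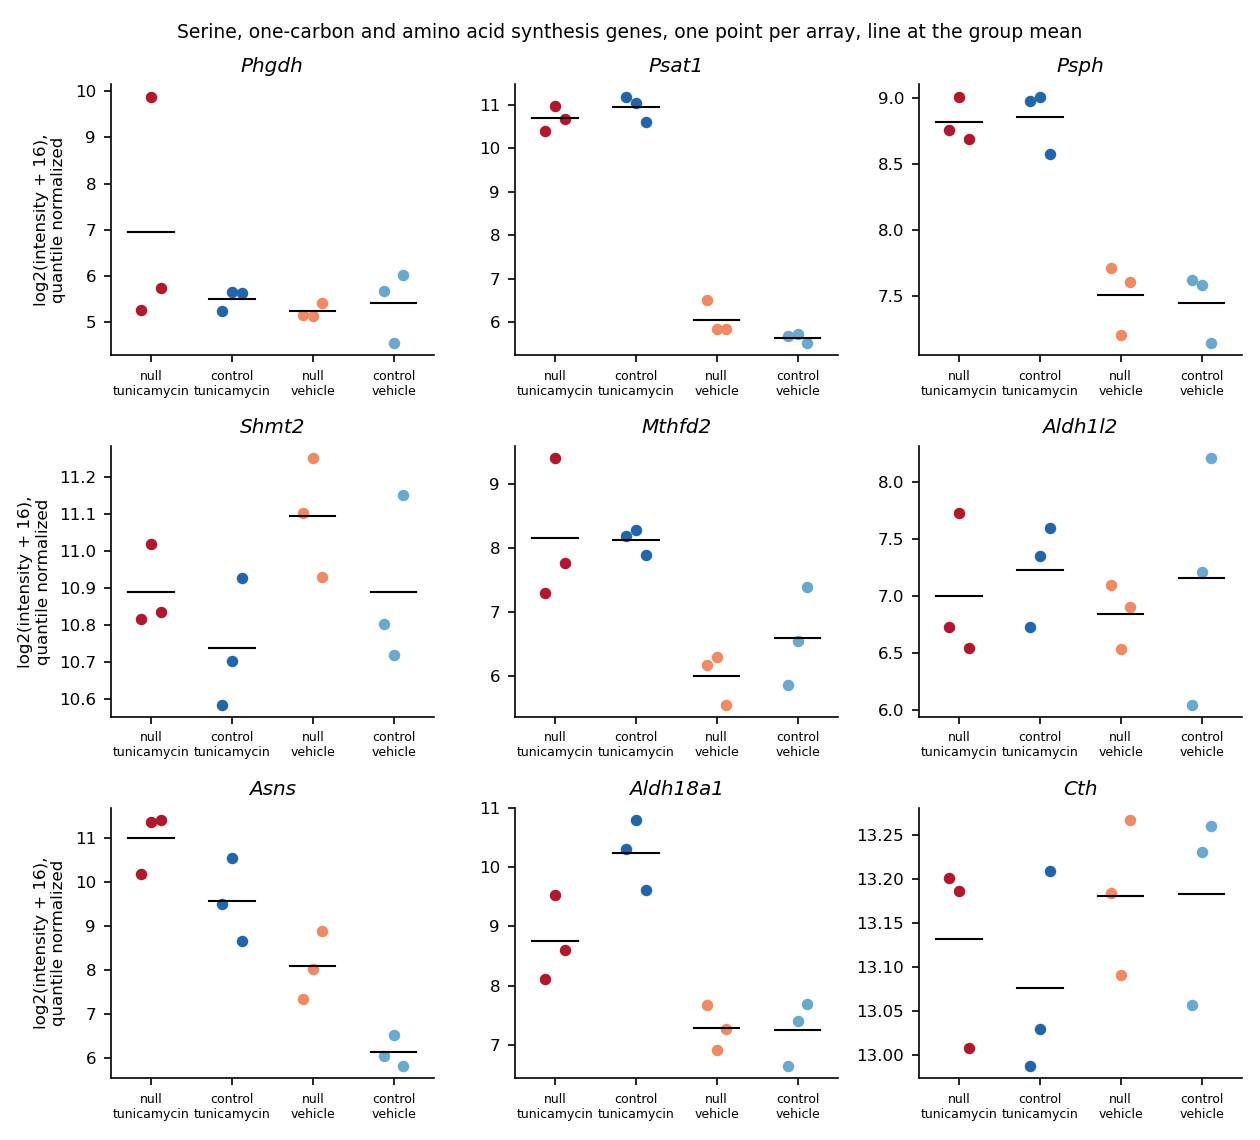
Expression of the 9 measured genes on the 12 arrays, as log2(intensity + 16) after quantile normalization on the vertical axis, with 1 point per array and a line at the mean of each group of 3. The tunicamycin points lie above all vehicle points of the same genotype for Psat1, Psph, Mthfd2, Asns and Aldh18a1, and 1 null tunicamycin array stands far above the other 11 for Phgdh.

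Psat1, the aminotransferase of the second serine step, had the largest change of the 9 in both genotypes. Its intensity was 1531, 1869 and 1890 in null livers with tunicamycin, against 69.9, 43.3 and 37.2 in null livers with vehicle. Control livers had 2594, 2312 and 1701 with tunicamycin, against 35.5, 36.8 and 29.2 with vehicle. Every tunicamycin array was thus far above every vehicle array. The rise was 4.63 ± 0.22 in null livers (24.7-fold, adjusted p = 2.35e-07) and 5.30 ± 0.22 in control livers (39.5-fold, adjusted p = 4.14e-08). The vehicle values are dim, and the size depends on the added constant: with a pseudocount of 64 the changes were 3.88 and 4.37, and with a pseudocount of 1 the change in control livers was 5.81. A second Psat1 probe set showed the same order, with 1014 to 1819 in null and 1290 to 1882 in control livers with tunicamycin, against 9.65 to 18.9 in null and 4.25 to 8.88 in control livers with vehicle.

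Psph, the phosphatase that ends the pathway, rose less. Its intensity was 485, 444 and 471 in null livers with tunicamycin, against 172, 134 and 159 with vehicle. In control livers the values were 573, 537 and 374 with tunicamycin, against 186, 164 and 110 with vehicle. The lowest tunicamycin array lay above the highest vehicle array, with a rise of 1.31 ± 0.19 in null livers (2.48-fold, adjusted p = 0.000817) and 1.40 ± 0.19 in control livers (2.64-fold, adjusted p = 0.000247).

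Phgdh, the dehydrogenase that begins the pathway, did not pass the test in either genotype. On its brightest probe set it had 22.8, 826 and 40.7 in null livers with tunicamycin, against 19.5, 20.1 and 24.7 in null livers with vehicle. The control livers gave 22.4, 35.1 and 32.7 with tunicamycin, against 35.5, 7.74 and 46.2 with vehicle. Only null tunicamycin replicate 2, the array with kidney transcripts, was high, and it was high on all 4 Phgdh probe sets, at 826, 755, 457 and 131, while no other array exceeded 46.2 on any of them. The change was 1.73 ± 0.90 in null livers (adjusted p = 0.225) and 0.10 ± 0.90 in control livers (adjusted p = 0.953). Without that array it was 0.28 ± 0.22 in null livers (adjusted p = 0.441) and -0.04 ± 0.20 in control livers (adjusted p = 0.895). All 4 probe sets are of the _x_at type, whose probes can match other sequences. The probe sets that stood for Shmt2 and Aldh18a1 are of that type too, as is the second Asns probe set. The 95% interval of the change with all arrays ran from -0.24 to 3.69 in null and from -1.86 to 2.06 in control livers.

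**Figure D2:**
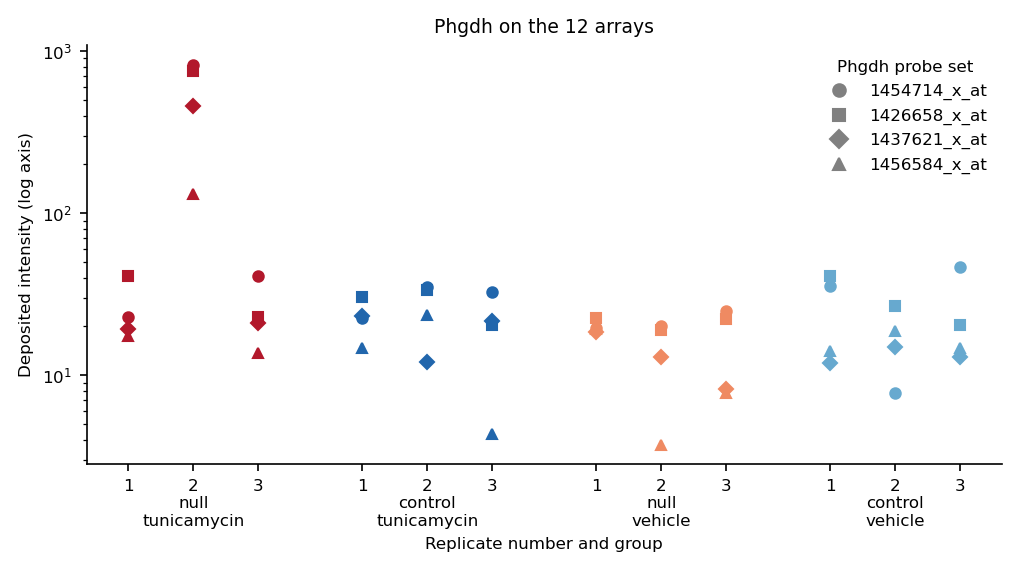
Deposited intensity of the 4 Phgdh probe sets (log axis) on each of the 12 arrays, by group and replicate number, with 1 symbol shape per probe set. All 4 stand highest on null tunicamycin replicate 2, at 131 to 826, and none exceeds 46.2 on another array.

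In the mitochondrial folate branch the genes differed. Mthfd2, which oxidises the methylene form of folate, had an intensity of 163, 585 and 246 in null livers with tunicamycin, against 53.1, 65.7 and 28.6 with vehicle. In control livers it had 326, 316 and 217 with tunicamycin, against 42.8, 72.5 and 131 with vehicle. The groups were apart in both genotypes, though the arrays within a group differed widely, and the highest was null tunicamycin replicate 2. The rise was 2.15 ± 0.49 in null livers (4.43-fold, adjusted p = 0.0106) and 1.53 ± 0.49 in control livers (2.88-fold, adjusted p = 0.0379). Without that array the rise in null livers was 1.53 ± 0.37 (adjusted p = 0.0174). The call in control livers was lost when any of control tunicamycin replicates 1, 2 and 3, control vehicle replicates 1 and 2 or null vehicle replicate 1 was left out, with changes of 1.16 to 1.63 and adjusted p of 0.0503 to 0.128. A second Mthfd2 probe set rose by 1.10 ± 0.29 in null (adjusted p = 0.0355) and 1.05 ± 0.29 in control livers (adjusted p = 0.0295) in the fit of all probe sets, in which the first had an adjusted p of 0.0548 in control livers.

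Shmt2, the mitochondrial hydroxymethyltransferase that frees the one-carbon unit from serine, had 2030, 1913 and 2073 in null livers with tunicamycin, against 1885, 2331 and 1715 with vehicle. Control livers gave 1728, 1813 and 2130 with tunicamycin, against 1749, 1573 and 2072 with vehicle. The groups overlapped, and the change was -0.20 ± 0.16 in null (adjusted p = 0.423) and -0.15 ± 0.16 in control livers (adjusted p = 0.531). Its 95% interval ran from -0.55 to 0.14 in null and from -0.50 to 0.19 in control livers. With values as deposited the changes of Shmt2 were 0.03 and 0.08, beside a median over all genes of 0.08 in null and 0.01 in control livers.

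Aldh1l2, which oxidises formyl-folate to carbon dioxide in mitochondria, had 100, 180 and 90.8 in null livers with tunicamycin, against 109, 79.6 and 91.1 with vehicle. Intensities in control livers were 98.1, 155 and 171 with tunicamycin, against 51.3, 122 and 238 with vehicle. The control vehicle arrays alone spanned all tunicamycin arrays, and the change was 0.16 ± 0.47 in null (adjusted p = 0.861) and 0.07 ± 0.47 in control livers (adjusted p = 0.937). The 95% intervals, -0.87 to 1.18 and -0.95 to 1.09, allowed a change of about 2-fold either way. The actin 5' to 3' ratio, which falls as RNA degrades, ranged from 0.295 to 0.389 in control tunicamycin and from 0.454 to 1.10 in control vehicle arrays. With it as a covariate, the control change of Aldh1l2 was 1.41 (adjusted p = 0.0155).

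Mthfd2 moved apart from its relatives in the same steps. Mthfd1, the cytosolic enzyme of these reactions, fell by 0.69 in null livers (adjusted p = 0.00616) and fell by 1.22 in control livers (adjusted p = 7.25e-05). Its intensity was 2443, 2228 and 2185 in null livers with tunicamycin, against 3476, 3098 and 2963 with vehicle, and 1853, 1450 and 1675 in control livers with tunicamycin, against 3413, 3381 and 3167 with vehicle. The change of Mthfd2 exceeded that of Mthfd1 by 2.84 in null and 2.75 in control livers, and that of the mitochondrial Mthfd2l by 2.42 and 2.10. Each test was on the mean over both genotypes, not on either genotype alone. The mean was 2.79 against Mthfd1 and 2.26 against Mthfd2l. Both means had an exact permutation p of 0.005, two-sided, the smallest that the 400 rearrangements within genotypes could give. Their adjusted p was 0.01 over the 4 pairs tested. Shmt2 exceeded the cytosolic Shmt1 by 0.05 in null and 0.59 in control livers. The mean was 0.32 (exact permutation p = 0.1, adjusted p = 0.133). Aldh1l2 exceeded the cytosolic Aldh1l1 by 0.26 and 0.59, with a mean of 0.42 (exact permutation p = 0.31, adjusted p = 0.31). These last comparisons turned on the choice of probe sets. With the mean of each gene's probe sets, they passed at genotype means of 0.71 (adjusted p = 0.00667) and 0.82 (adjusted p = 0.025). The Shmt2 comparison also passed at a genotype mean of 0.42 (adjusted p = 0.0333) without null vehicle replicate 1.

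Asns, the asparagine synthetase, rose in both genotypes with a wide spread between arrays. Its intensity was 1320, 2477 and 3037 in null livers with tunicamycin, against 130, 243 and 412 with vehicle. The values in control livers were 822, 1623 and 392 with tunicamycin, against 50.7, 70.7 and 38.5 with vehicle. Within each genotype every tunicamycin array was above every vehicle array, yet the lowest control tunicamycin array lay below the highest null vehicle array. The rise was 2.91 ± 0.50 in null livers (7.50-fold, adjusted p = 0.00212) and 3.44 ± 0.50 in control livers (10.9-fold, adjusted p = 0.000365). The second Asns probe set rose by 3.03 ± 0.54 in null (adjusted p = 0.00451) and 3.96 ± 0.54 in control livers (adjusted p = 0.000357). With a pseudocount of 64, the rise in control livers was 2.78.

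Aldh18a1, which makes the precursor of proline and ornithine from glutamate, had 304, 641 and 447 in null livers with tunicamycin, against 167, 107 and 122 with vehicle. In control livers the arrays read 1431, 1937 and 807 with tunicamycin, against 86.6, 143 and 164 with vehicle. The vehicle groups overlapped, while each null tunicamycin array lay below each control tunicamycin array. The rise was 1.46 ± 0.40 in null livers (2.76-fold, adjusted p = 0.0264) and 2.99 ± 0.40 in control livers (7.95-fold, adjusted p = 0.000199). In null livers the call was lost when null tunicamycin replicate 2 or 3 or null vehicle replicate 2 or 3 was left out, with changes of 1.08 to 1.54 and adjusted p of 0.0551 to 0.0863. The other 4 probe sets rose as well, by 1.48 to 2.42 in null and 2.91 to 3.94 in control livers.

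Cth, the cystathionine lyase, was bright and steady on every array. It had 9863, 9110 and 8928 in null livers with tunicamycin, against 8628, 8689 and 9338 with vehicle, and 8559, 9001 and 9804 in control livers with tunicamycin, against 8296, 9435 and 9274 with vehicle. The groups overlapped, with a change of -0.05 ± 0.13 in null (adjusted p = 0.839) and -0.11 ± 0.13 in control livers (adjusted p = 0.595). Its 95% intervals, -0.33 to 0.23 and -0.39 to 0.17, were the narrowest among the 9 genes. With values as deposited the changes of Cth were 0.07 and 0.02.

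**Figure D3:**
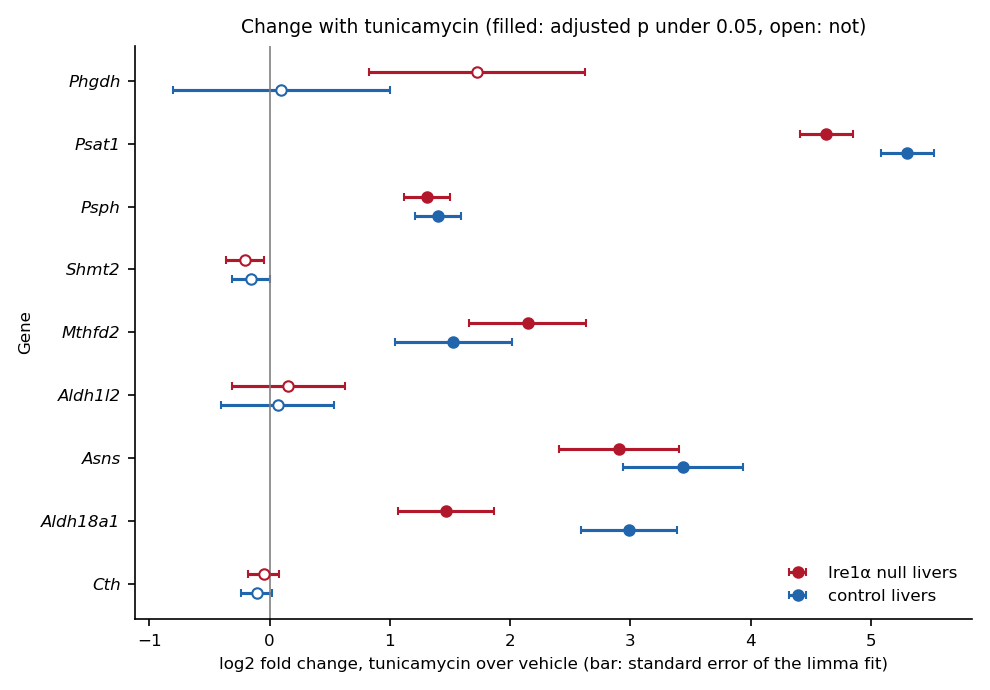
Change of each gene with tunicamycin over vehicle (horizontal axis, log2) in null livers and in control livers, with bars for the standard error of the limma fit and filled points for an adjusted p under 0.05. Psat1 lies at 4.63 and 5.30 and Asns at 2.91 and 3.44, while Shmt2, Aldh1l2 and Cth lie between -0.20 and 0.16 in both genotypes.

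The comparison of null with control livers asks how these levels differed without Ire1α. With tunicamycin, 0 of the 9 genes passed the limma threshold, where 3.99% of all genes did, and 2 of the 9 had an unadjusted p under 0.05, where 15.6% of all genes did. These were Aldh18a1, with lower values in null livers, and Asns, with higher values. The median difference over the 9 genes was 0.03, beside 0.02 over all genes, and without null tunicamycin replicate 2 it was -0.13, beside 0.01 over all genes. One gene had non-overlapping groups with null below control, a pattern shown by 11.5% of all genes.

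That gene was Aldh18a1, with 304 to 641 in null and 807 to 1937 in control livers, a difference of -1.49 ± 0.40 (adjusted p = 0.0637). Each of its 5 probe sets showed non-overlapping groups, with differences of -1.47 to -1.64 and adjusted p of 0.0576 to 0.0888 in the fit of all probe sets. The probe sets read the same transcript on the same arrays and are not independent, and all but the dimmest are of the _x_at type. The call depended on the settings: it was made under 10 of 26 alternatives. Without null tunicamycin replicate 2 the difference was -1.88 ± 0.37 (adjusted p = 0.0168), and without control tunicamycin replicate 3 it was -1.79 (adjusted p = 0.0454). The Gapdh 5' to 3' ratio ranged from 0.370 to 0.435 in null and from 0.523 to 0.577 in control tunicamycin arrays, and with it as a covariate the difference was -1.77 (adjusted p = 0.0332).

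Asns ran the other way under tunicamycin, with 1320 to 3037 in null and 392 to 1623 in control livers. The groups overlapped, and the difference of 1.42 ± 0.50 did not pass (adjusted p = 0.173). It passed under none of the 26 alternatives, and without null tunicamycin replicate 2 it was 1.23 ± 0.55 (adjusted p = 0.309). Psat1 and Psph differed by -0.26 ± 0.22 (adjusted p = 0.649) and -0.04 ± 0.19 (adjusted p = 0.959) between null and control livers, with 95% intervals of -0.74 to 0.22 and -0.46 to 0.38. For Mthfd2 the difference was 0.03 ± 0.49 (adjusted p = 0.987), and without null tunicamycin replicate 2 it was -0.59 ± 0.37 (adjusted p = 0.500). Phgdh differed by 1.45 ± 0.90 between null and control livers (adjusted p = 0.491), and by 0.07 ± 0.22 without that array (adjusted p = 0.931).

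With vehicle, 0 of the 9 genes and 0% of all genes passed the threshold between null and control livers in limma, and 1 of the 9 and 597 of 14568 genes (4.10%) had an unadjusted p under 0.05. With the replicate number as a block 1 gene of all passed, as did 1 with only the vehicle arrays in the fit, and neither was among the 9. Non-overlapping groups with null above control were seen for 2 of the 9 genes and for 3.75% of all genes. One of them was Asns, at 130, 243 and 412 in null livers, against 50.7, 70.7 and 38.5 in control livers. Its difference was 1.96 ± 0.50 (3.88-fold, adjusted p = 0.988). The second Asns probe set gave 85.2, 173 and 307 in null livers, against 30.5, 26.3 and 11.8 in control livers, a difference of 2.34 ± 0.54 (adjusted p = 0.935). The other was Psat1, at 69.9, 43.3 and 37.2 in null livers, against 35.5, 36.8 and 29.2 in control livers, where the lowest null array and the highest control array lay close together, and the difference was 0.41 ± 0.22 (adjusted p = 0.988).

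**Figure D4:**
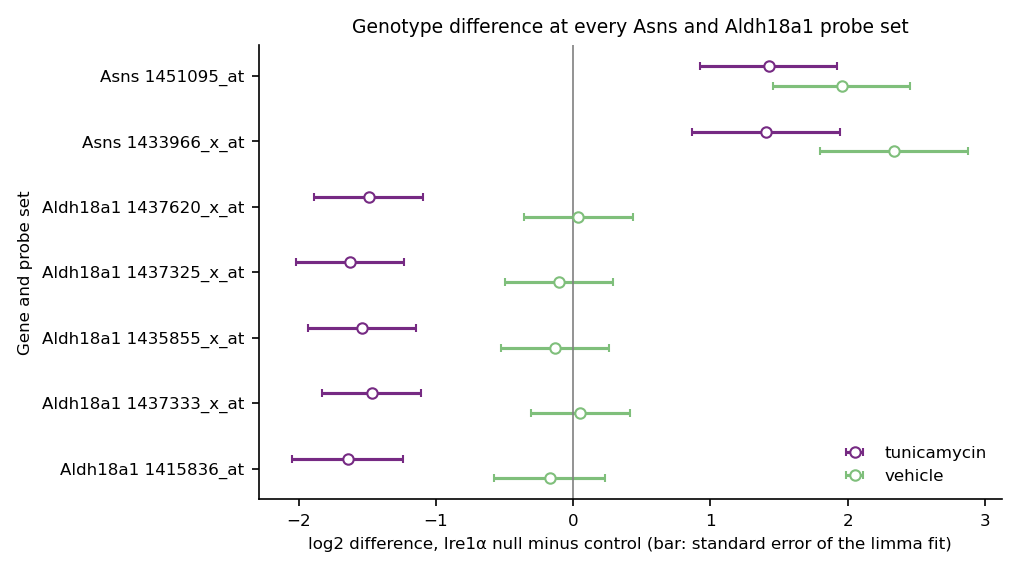
Difference between null and control livers (horizontal axis, log2, null minus control) at each of the 2 Asns and 5 Aldh18a1 probe sets, with tunicamycin and with vehicle, from the fit of all probe sets, with bars for the standard error. The 5 Aldh18a1 probe sets lie between -1.64 and -1.47 with tunicamycin and between -0.17 and 0.05 with vehicle, the Asns probe sets lie above 0 in both, and open points mark that none passed the threshold.

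The interaction tests whether the tunicamycin change differed between genotypes. It passed for 0 of the 9 genes in limma, against 0.837% of all genes, and 1 of the 9, beside 8.26% of all genes, had an unadjusted p under 0.05. That gene was Aldh18a1, with an interaction of -1.53 ± 0.56 (adjusted p = 0.404). Without null tunicamycin replicate 2 the interaction was -1.92 ± 0.50 (adjusted p = 0.136). For Psat1 it was -0.67 ± 0.31 (adjusted p = 0.613), for Asns -0.53 ± 0.71 (adjusted p = 0.941) and for Psph -0.09 ± 0.27 (adjusted p = 0.983). Mthfd2 had an interaction of 0.62 ± 0.69 (adjusted p = 0.917), which was 0.00 ± 0.50 without null tunicamycin replicate 2, and Phgdh had 1.63 ± 1.27 (adjusted p = 0.850), which was 0.32 ± 0.30 without it (adjusted p = 0.920). Both tunicamycin and both genotype comparisons share arrays with one another, so their values stand side by side and were not correlated.

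Among other genes of the same pathways, more fell than rose. Of 72 symbols in 5 lists, 59 had a probe set and were tested. Among these 59 genes, 3 rose and 13 fell in null livers, and 4 rose and 20 fell in control livers, with medians of -0.24 and -0.18. The falls made up 22.0% of the listed genes in null and 33.9% in control livers, beside 9.23% and 13.3% of all genes, and the rises 5.08% and 6.78%, beside 7.59% and 11.6% of all genes. The number of falls depended on scaling, as centring the array medians moved the median change of all genes in control livers to -0.01. Of 58 listed genes then tested, 7 fell in null livers (12.1%, beside 4.83% of all genes) and 10 in control livers (17.2%, beside 8.11%). The rises were 4 in null livers (6.9%, beside 8.62% of all genes) and 5 in control livers (8.62%, beside 14.4%). In the folate list 3 genes rose and 2 fell in null livers, but the rise of Atic was called under only 6 of 26 alternatives. In control livers the falls numbered 11 without control tunicamycin replicate 1 (18.6%, beside 9.75% of all genes). They numbered 13 without control tunicamycin replicate 2 (22.0%, beside 8.94%) or control vehicle replicate 3 (22.0%, beside 9.78%).

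In the serine and glycine list, 0 of 12 rose, while 5 fell in null and 6 in control livers. Gldc, the decarboxylase of the glycine cleavage system, had 241, 785 and 292 in null livers with tunicamycin, against 919, 1224 and 1151 with vehicle. Control livers read 194, 228 and 142 with tunicamycin, against 1494, 1482 and 1688 with vehicle. Within each genotype these tunicamycin intensities lay below those with vehicle. Null tunicamycin replicate 2, at 785, came near null vehicle replicate 1, at 919. Gldc fell by 1.72 ± 0.40 in null (adjusted p = 0.0125) and fell by 3.11 ± 0.40 in control livers (adjusted p = 0.000155). The call in null livers was lost without null tunicamycin replicate 3, and without replicate 2, the array with kidney transcripts, the fall was by 2.36 (adjusted p = 1.24e-05). Glyctk, a glycerate kinase, fell by 2.01 ± 0.20 in null (adjusted p = 6.03e-05) and fell by 1.72 ± 0.20 in control livers (adjusted p = 8.79e-05), in each of the 26 alternatives. Srr, which turns L-serine into D-serine, fell by 0.80 in null (adjusted p = 0.00148) and fell by 0.63 in control livers (adjusted p = 0.00386). The cytosolic Shmt1 fell by 0.74 in control livers (adjusted p = 0.00893). The control calls of Srr and Shmt1 were lost with array medians centred or with values as deposited, that of Srr also with the actin covariate.

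In the folate list of 17 genes, 3 rose and 2 fell in null livers, and 2 rose and 6 fell in control livers. Fpgs, which adds glutamate tails that keep folates in the cell, rose by 1.34 ± 0.24 in null (adjusted p = 0.00268) and 1.35 ± 0.24 in control livers (adjusted p = 0.00138). Its intensity was 3192, 2279 and 3949 in null livers with tunicamycin, against 749, 1578 and 900 with vehicle, and 2836, 3291 and 3627 in control livers with tunicamycin, against 1059, 899 and 1271 with vehicle. Mtrr, which reactivates methionine synthase, rose by 0.95 ± 0.20 in null (adjusted p = 0.00655) and 1.15 ± 0.20 in control livers (adjusted p = 0.00118). Slc46a1, a folate carrier, fell by 0.81 ± 0.12 in null and fell by 0.83 ± 0.12 in control livers (adjusted p = 0.000986 and 0.000438). Slc19a1, the reduced folate carrier, fell by 0.92 in control livers (adjusted p = 0.0195), a call lost without control tunicamycin replicate 1 or control vehicle replicate 2 or 3. The Slc19a1 call was lost too with the mean of its probe sets and with the actin covariate. The third rise in null livers was Atic, an enzyme of purine synthesis, by 0.57 (adjusted p = 0.0470), a call made under 6 of 26 alternatives and, among those that leave out 1 array, kept only without null tunicamycin replicate 2. With the mean of its probe sets the change of Atic in null livers was -0.06.

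In the methionine, transsulfuration and glutathione list of 15 genes, 0 rose, and 3 fell in null and 5 in control livers. Ethe1, which oxidises persulfide in mitochondria, fell by 0.97 ± 0.27 in null livers (adjusted p = 0.0288), a call lost without null tunicamycin replicate 1 or 2 or null vehicle replicate 2 or 3. In control livers it fell by 0.87 ± 0.27 (adjusted p = 0.0322). That call was lost without control tunicamycin replicate 1 or 2 or control vehicle replicate 1 or 3. It was lost too with array medians centred, values as deposited or the actin covariate. Sqor, which oxidises sulfide in mitochondria, fell by 0.53 ± 0.12 in null (adjusted p = 0.0108) and fell by 0.96 ± 0.12 in control livers (adjusted p = 0.000121), and the calls of Sqor and Ethe1 in null livers were lost with array medians centred or with values as deposited. Bhmt2, a methyltransferase that makes methionine, fell by 0.96 ± 0.15 in null (adjusted p = 0.00100) and fell by 0.77 ± 0.15 in control livers (adjusted p = 0.00225). Gclm, the modifier subunit of the first glutathione enzyme, fell by 0.92 ± 0.19 (adjusted p = 0.00438) and Gclc, its catalytic subunit, fell by 1.06 ± 0.19 in control livers (adjusted p = 0.00147). In the proline and glutamate list, 0 of 7 rose and 2 fell in each genotype. Oat and Pycrl changed by -0.55 and -0.54 in null livers, the Oat call being lost with values as deposited, and Aldh4a1 and Glud1 by -0.95 and -0.44 in control livers. The Pycrl call was lost without null tunicamycin replicate 1 or 3 or null vehicle replicate 2 or 3, and the Aldh4a1 call without control tunicamycin replicate 1 or 2 or control vehicle replicate 1 or 3. The Glud1 call was lost without any of null tunicamycin replicates 1 and 3, control tunicamycin replicates 1 and 2, null vehicle replicate 3 and the control vehicle replicates. With array medians centred or with values as deposited, the calls of Pycrl, Aldh4a1 and Glud1 were lost too. In the aspartate, asparagine and alanine list of 8 genes, 0 rose in null livers and Got1 and Gpt2, a pair of transaminases, rose in control livers by 1.14 (adjusted p = 0.00212) and 0.54 (adjusted p = 0.0235). The Gpt2 call was lost without control tunicamycin replicate 2 or 3 or control vehicle replicate 1. Aspg, an asparaginase, fell by 0.92 ± 0.27 in null (adjusted p = 0.0351) and fell by 1.37 ± 0.27 in control livers (adjusted p = 0.00261), and in null livers the call was lost without null tunicamycin replicate 2 (-0.55, adjusted p = 0.0702) or null vehicle replicate 1 or 2. The Aspg call in null livers was also lost with array medians centred or with values as deposited.

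**Figure D5:**
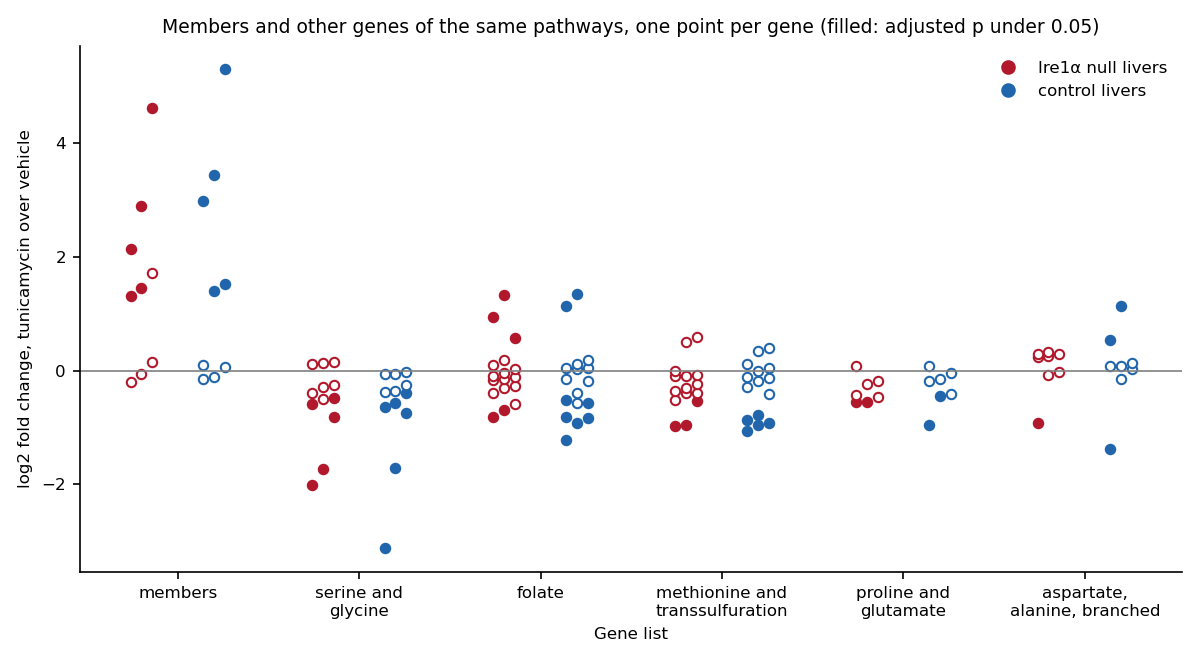
Change with tunicamycin over vehicle (vertical axis, log2) of the 9 measured genes and of the other genes of 5 pathway lists, with 1 point per gene, in null livers and control livers, filled for an adjusted p under 0.05. Called rises reach 5.30 among the 9 genes and 1.35 in the lists, where falls reach -3.11.

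Between null and control livers with tunicamycin, 2 of the 59 genes were higher (3.39%, beside 0.755% of all genes) and 1 was lower (1.69%, beside 3.23%). Got1, which makes aspartate, was the lower one, with 4075, 5609 and 7810 in null and 10737, 11970 and 10741 in control livers. The groups did not overlap, and the difference was -0.95 ± 0.21 (adjusted p = 0.0277). The call was lost without null tunicamycin replicate 1 or any of control tunicamycin replicates 1, 2 and 3, with adjusted p up to 0.122 over the 26 alternatives. The Got1 call was also lost with the Gapdh ratio as a covariate and with only the groups compared. Atic and Gclc were higher, by 0.76 each (adjusted p = 0.0363 and 0.0450), called under 12 and 7 of the 26. The Gclc call held without null tunicamycin replicate 3 and without control tunicamycin replicate 3 and was lost without any other single array. The Atic call was lost without null tunicamycin replicate 1 or 3, any control tunicamycin replicate, or control vehicle replicate 2 or 3. No gene of the lists passed with vehicle or for the interaction in limma, where 0% and 0.837% of all genes did.

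Among regulators of the stress response, Atf4 rose by 2.05 ± 0.14 in null livers (adjusted p = 3.80e-06) and 2.11 ± 0.14 in control livers (adjusted p = 1.45e-06). Its intensity was 4191, 4705 and 4534 in null livers with tunicamycin, against 764, 1075 and 950 with vehicle, and 5939, 5973 and 5924 in control livers with tunicamycin, against 1148, 1258 and 1180 with vehicle. With tunicamycin each null array lay below each control array, a difference of -0.35 ± 0.14 that did not pass (adjusted p = 0.240). Ddit3, which encodes CHOP, rose by 5.37 in null and 6.01 in control livers, and Atf6, an ER stress sensor, by 1.44 in null and 1.87 in control livers. Eif2ak3, which encodes the ER kinase PERK, rose by 1.12 in null (adjusted p = 0.0369) and 2.03 in control livers (adjusted p = 0.000775), and in null livers the call was lost without null tunicamycin replicate 2, control tunicamycin replicate 1 or 2 or null vehicle replicate 1 or 2. Xbp1, whose transcript Ire1α splices, rose by 1.21 in null and 0.55 in control livers. The control call of Xbp1 failed when its probe sets were averaged, without _x_at and _s_at probe sets and with the actin covariate, with changes of 0.37 to 0.73 and adjusted p up to 0.330 over the 26 alternatives. Between genotypes with tunicamycin, Xbp1 was higher in null livers by 0.56 (adjusted p = 0.0434) and Atf6 was lower, at -0.64 (adjusted p = 0.0441). These calls were made under 9 and 10 of the 26 alternatives, and both were lost without any single tunicamycin array or without control vehicle replicate 2 or 3, that of Xbp1 also without null vehicle replicate 1 and that of Atf6 without control vehicle replicate 1. Eif2ak4, the amino acid sensing kinase GCN2, showed -0.20 in null (adjusted p = 0.682) and -0.03 in control livers (adjusted p = 0.948).

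Over the 12 arrays, the genes closest in pattern to Psat1 by Pearson's r were Nupr1, Iars and Wdr74 (0.995 each), and to Psph they were Iars, Paqr3 (0.986 each) and Agap1 (0.981). Asns was nearest to Eif2b3 (0.951), Mark3 (0.931) and Dmap1 (0.920). Aldh18a1 was nearest to Efnb2 (0.972), Rbm42 and Bhlha15 (0.968 each). For Mthfd2 the nearest were Jak3 (0.970), Cgref1 (0.955) and Slc3a2 (0.944), and for Phgdh Npnt (0.975), Rhcg and Sostdc1 (0.968 each). Shmt2 was nearest to Fam53b (0.904), Hmgxb3 (0.900) and Ttll8 (0.876), Aldh1l2 to Loxl1 (0.958), Cep89 (0.955) and Senp1 (0.944), and Cth to Fgf18 (0.948), Abhd5 (0.947) and Efcab1 (0.911). The arrays share 4 groups, so for the genes called with tunicamycin these values mostly order genes by their group means. Phgdh was high only on null tunicamycin replicate 2, and Shmt2, Aldh1l2 and Cth had no called difference between groups. For these genes the values do not order by group means. All are the highest r among all genes tested, over 12 arrays, and describe likeness only.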

How the data were processed

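RNA of 12 livers was read on Affymetrix arrays, with biotin-labelled cRNA made from 6 µg of Trizol-extracted total RNA, per the labels. The authors deposited 1 linear intensity for each probe set, and the sources used here do not give how probes were summarised or scaled. Columns were matched to samples by name. The labels call the samples biological replicates. Their numbers were not taken as pairs, since only 3 of 18 same-number pairs of arrays had deviations from the group means correlated above 0.1 (r = -0.277 to 0.369).

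Intensities were turned to log2(value + 16) and quantile normalized over all but 64 control probe sets. Of 45101 probe sets, 34945 had 1 symbol in the platform annotation, 932 several and 9160 none, and the last kinds were not used. The symbols of 34741 were looked up by gene ID, which changed 0. The dimmest 30% of probe sets were left out, and the brightest remaining probe set stood for each gene. Group means were fitted over all 12 arrays with lmFit and tested with eBayes in limma 3.58.1 (R 4.3.3, with the package data.table at version 1.17.8), in 5 contrasts and with 8 residual degrees of freedom. No detection call was used, and 3 arrays per group limit the precision. Promoters were searched in Python 3.11.15, with figures from matplotlib 3.10.9. The fit was tested on simulated data.

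The members, gene lists, pairs and alternatives were chosen with earlier results of these data known. Genes were named by rule: all members, their relatives in the pairs, up to 3 called rises and falls of the largest change per list and contrast, 6 stress regulators and the 3 genes most like each member. Ern1, the kidney markers and the hepatocyte marker Apob are named as checks of the arrays. Alternatives were other pseudocounts, filters, scalings, probe set choices and limma options, the replicate block, 5' to 3' ratios as covariates, fits of only the groups compared and leaving out each array in turn.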

Additional observations from a re-analysis of the deposited data

How the results depend on the processing

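Under 26 alternatives, the tunicamycin calls of Psat1, Psph and Asns held in both genotypes, as did those of Mthfd2 in null and Aldh18a1 in control livers. The calls of Mthfd2 in control and of Aldh18a1 in null livers each failed when certain single arrays were left out. Over the alternatives 4 to 5 of the 9 genes were called in null livers and 4 to 6 in control livers, where Aldh1l2 was the sixth with the actin covariate. With tunicamycin, 1 gene in place of 0 was called between null and control livers under 10 alternatives, always Aldh18a1: at -1.38 with a pseudocount of 64, -1.56 with array medians centred, -1.53 with values as deposited, -1.55 with the mean of its probe sets, -1.64 without _x_at and _s_at probe sets, -1.92 with array weights, -1.77 and -1.46 with the Gapdh and actin ratios as covariates, and -1.88 and -1.79 without null tunicamycin replicate 2 and control tunicamycin replicate 3. Over the leave-outs of 1 array this count ran from 0 to 1. Averaged over both genotypes, Shmt2 minus Shmt1 passed with the mean of probe sets (0.706). Over leave-outs of 0.231 to 0.42 it passed without null vehicle replicate 1. Aldh1l2 minus Aldh1l1, averaged likewise, passed with the mean of probe sets (0.821). The cause of these shifts was not tested. With the replicate number as a block, 5 genes rose in each genotype as without it, Aldh18a1 differed between genotypes with tunicamycin by -1.49 (adjusted p = 0.0821), and 0 of the 9 genes passed the genotype or interaction tests. No called value of the 9 genes changed sign under any alternative run, and among the called genes of the lists and regulators only Atic did, in null livers (0.57, and -0.06 when its probe sets were averaged).

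Over all genes, the 2449 calls in null livers (1105 higher, 1344 lower) became 1256 higher and 703 lower with array medians centred and 1477 and 512 as deposited, and 1434 in all with only the groups compared, 1614 without null vehicle replicate 1 and 1617 without null tunicamycin replicate 3. The 3636 calls in control livers (1693 higher, 1943 lower) became 2100 higher and 1181 lower, 2062 and 1068, and 1765 in all with the actin covariate. Between genotypes with tunicamycin 581 calls became 279 to 348 without null replicate 1 or control replicate 1 or 2, 348 with only the groups compared and 1284 with array weights. The 122 interaction calls ranged from 14 without control tunicamycin replicate 2 to 225 with array weights.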

Other observations

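The order of the arrays within a group was counted over the 5 genes called in both genotypes, on the quantile-normalized log2 scale. In null livers with tunicamycin, replicate 1 was lowest for 4 of the 5 and replicate 2, which carried kidney transcripts, was highest for 4. In control livers with tunicamycin, replicate 3 was lowest for 5 of 5 and replicate 2 was highest for 4. With vehicle no array was lowest or highest for more than 3 of the 5. Atf4 on the same scale lay at 11.94 to 12.27 on the 3 null arrays and at 12.42, 12.43 and 12.44 on control replicates 1, 2 and 3 with tunicamycin. On the deposited scale the order differs, as null tunicamycin replicate 2 was then highest only for Mthfd2 and Aldh18a1 and control tunicamycin replicate 2 only for Asns and Aldh18a1. The part of array quality in this order was not tested.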
